A study of Homo sapiens with 12 samples.

Results

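The genes described here are 10 abundant folding proteins of the endoplasmic reticulum (ER), taken from a table of 13074 genes by their symbols: HSPA5, HSP90B1, HYOU1, DNAJB11, CALR, CANX, P4HB, PDIA3, PDIA4 and PDIA6. All 10 had enough counts to be tested, among 10467 tested genes. Their levels were read as ribosome footprints, meaning mRNA fragments that a ribosome shields from nuclease while it translates. Footprints were counted in 12 libraries from A375, an established line of human melanoma cells. Control cells (genotype WT) and cells of a single knockout line of FTSJ1 (genotype label FTS1 KO) were grown without added selenium or with 30 nM sodium selenite, with 3 libraries in each of the 4 groups. FTSJ1 methylates the ribose of nucleotides in the anticodon loop of certain tRNAs, and the stated purpose was to follow selenoprotein translation after loss of one such mark on the selenocysteine tRNA. None of the 10 genes encodes a selenoprotein.

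Proteins destined for secretion or for membranes fold in the ER, where chaperones bind exposed hydrophobic stretches, lectins hold glycoproteins, and disulfide isomerases form and reshuffle cysteine bridges. When unfolded protein accumulates, the sensors ATF6, IRE1 and PERK start the unfolded protein response, and the transcription factors ATF6 and XBP1 raise many chaperone genes through short promoter motifs called ER stress response elements. HSPA5 (also known as BiP or GRP78) is the ER member of the Hsp70 family, and HSP90B1 (GRP94) is the ER member of the Hsp90 family. HYOU1 (GRP170) is a large Hsp70-related protein that exchanges nucleotide on HSPA5, and DNAJB11 (ERdj3) is a J-domain co-chaperone of HSPA5. CALR (calreticulin, soluble) and CANX (calnexin, membrane-bound) are lectin chaperones that bind monoglucosylated glycoproteins. PDIA3 (ERp57) is the disulfide isomerase that works with these lectins, P4HB is protein disulfide isomerase itself and also a subunit of prolyl 4-hydroxylase, and PDIA4 (ERp72) and PDIA6 (P5) are further isomerases of the family.

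Library totals ran from 520989 to 1543627 counts with a median of 1336000, and the lowest were those of knockout replicates 2 (636920) and 3 (520989) with selenite. Levels are given as CPM, that is counts per library size, where the size was corrected by TMM scaling. FTSJ1 itself had 45.4 to 72.2 CPM in the 6 control libraries and 0 to 11.98 CPM in the 6 knockout libraries, with log2 fold changes of -4.41 ± 0.54 (SE) without selenite and -3.69 ± 0.53 with it. Of 11 melanocyte and melanoma markers 7 were in the table, and PMEL, MLANA, TYR and TYRP1 were not. DCT was at 0 in all knockout libraries. The summed level of the 7 was 1873 to 2097 CPM in control cells, 935 to 1039.9 CPM in knockout cells without selenite and 1333 to 1579 CPM in knockout cells with it. The log2 fold changes of knockout over control with selenite were 0.06 (SOX10), -0.16 (MCAM), -0.48 (CSPG4), -1.2 (MITF), -1.3 (S100B) and -1.6 (GPNMB). Without selenite SOX10 stood at -0.89 and CSPG4 at -1.33. Summed markers of other cell types were lower: 208 to 401 CPM for KRT8 and KRT18, 23.6 to 55.3 CPM for CD68 and LYZ, 31.7 to 53.2 CPM for COL1A1, PDGFRB and LUM, and 0.82 to 6.56 CPM for VWF. The part of the marker shift in the results below was not tested. Since there was 1 knockout line, effects of FTSJ1 and of anything else particular to that line cannot be told apart. With footprints alone, mRNA level and translation of an mRNA were not separated, and in bulk samples fewer cells of a type and less RNA per cell cannot be told apart. Whether replicate libraries stem from separate cultures is not in the labels, so the p-values cover the spread between libraries, which may be technical.

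The promoters of these genes are shown because ER stress response elements are what the best known members of the set share in sequence. The RefSeq table (GRCh38.p14) holds windows of 250 bases before to 50 bases after an annotated start for 9 of the 10 genes. PDIA3 is not among them. CANX had 4 windows at different starts, PDIA4 and PDIA6 had 2 each, and the others had 1. The CANX and PDIA6 sites printed here lie inside the spans of these genes. The element ERSE was searched as CCAAT, any 9 bases and CCACG, and ERSE-II as ATTGG, any 1 base and CCACG, on both strands; each ERSE contains the CCAAT box, and the ATTGG of ERSE-II is that box on the opposite strand. ERSE was found in 5 of the 9 genes (HSPA5, HSP90B1, CALR, CANX and PDIA6), against 25 of all 27305 genes in the table (0.092%; 27 of 35116 windows, 0.077%). ERSE-II was found in HYOU1, at 2 sites, against 19 of all genes (0.07%) and 19 of all windows (0.054%). Since the elements were chosen as ones that the best known members share, these shares describe the windows and are no test. The CCAAT box alone was in all 9 genes and in 39.7% of all genes (34.6% of windows). For PDIA4, P4HB and DNAJB11 the letters of neither element were in the window, which says nothing of the factors that bind there. The sites are printed 5′ to 3′ on the strand of the motif, with the fixed letters in capitals.
HSPA5 site, chr9:125241391-125241409, minus strand: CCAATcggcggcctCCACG
HSP90B1 distal site, chr12:103930216-103930234, plus strand: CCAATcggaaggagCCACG
HSP90B1 proximal site, chr12:103930321-103930339, minus strand: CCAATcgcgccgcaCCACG
CALR site, chr19:12938384-12938402, minus strand: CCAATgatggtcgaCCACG
CANX site, chr5:179698778-179698796, plus strand: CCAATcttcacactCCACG
PDIA6 site, chr2:10812853-10812871, minus strand: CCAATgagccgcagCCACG
HYOU1 sites, chr11:119057274-119057284 and chr11:119057380-119057390, plus strand, with the same letters at both: ATTGGaCCACG

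The 250 bases before the start are printed for 4 genes with contrasting results below: PDIA4 and HYOU1, which were higher in both knockout comparisons, and HSPA5 and HSP90B1, whose difference did not pass the test without selenite. Of the genes not printed in full, PDIA6 (with ERSE) and P4HB (with neither element) were also higher in both knockout comparisons. CANX (with ERSE) and DNAJB11 (with neither element) were higher without selenite only, and CALR (with ERSE) passed in neither. A link between element and result was not tested. Each printed stretch is written 5′ to 3′ on the strand of the gene, with ERSE (HSPA5, HSP90B1), ERSE-II (HYOU1) or the CCAAT boxes (PDIA4) in capitals in either orientation.
PDIA4, chr7:149028491-149028740, minus strand: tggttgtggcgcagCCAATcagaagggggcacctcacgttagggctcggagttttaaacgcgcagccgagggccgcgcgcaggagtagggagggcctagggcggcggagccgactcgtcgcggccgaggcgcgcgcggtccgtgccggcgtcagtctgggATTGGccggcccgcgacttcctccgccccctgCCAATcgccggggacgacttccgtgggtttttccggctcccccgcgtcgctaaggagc
HYOU1, chr11:119057206-119057455, minus strand: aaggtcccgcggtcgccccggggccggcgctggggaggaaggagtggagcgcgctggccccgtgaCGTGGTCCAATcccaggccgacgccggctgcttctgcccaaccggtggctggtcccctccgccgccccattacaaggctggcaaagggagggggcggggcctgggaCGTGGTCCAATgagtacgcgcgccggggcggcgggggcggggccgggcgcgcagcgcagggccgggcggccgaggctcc
HSPA5, chr9:125241344-125241593, minus strand: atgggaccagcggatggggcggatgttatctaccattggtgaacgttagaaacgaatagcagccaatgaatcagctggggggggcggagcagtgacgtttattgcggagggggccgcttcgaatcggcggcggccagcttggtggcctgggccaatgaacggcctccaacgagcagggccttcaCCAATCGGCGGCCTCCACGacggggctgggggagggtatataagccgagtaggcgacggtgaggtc
HSP90B1, chr12:103930160-103930409, plus strand: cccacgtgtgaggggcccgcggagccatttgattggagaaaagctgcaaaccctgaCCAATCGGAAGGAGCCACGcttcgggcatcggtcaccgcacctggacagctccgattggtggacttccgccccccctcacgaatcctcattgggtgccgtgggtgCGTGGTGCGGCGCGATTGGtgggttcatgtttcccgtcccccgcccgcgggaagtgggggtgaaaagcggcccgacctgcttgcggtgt

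The first question was how FTSJ1 knockout cells differed from control cells without added selenite. Footprints of 7 of the 10 genes rose and none fell: PDIA4, HYOU1, PDIA6, PDIA3, DNAJB11, CANX and P4HB, by 1.19-fold (P4HB) to 1.74-fold (PDIA4). The 3 that did not pass the test were HSPA5, HSP90B1 and CALR. Among all tested genes 23.9% were called in this comparison, 11.8% (1240 genes) higher and a similar number (1261) lower (edgeR quasi-likelihood test, Benjamini-Hochberg adjusted p under 0.05 over 10467 genes). The median log2 fold change was 0.33 over the 10 genes and 0.00 over all tested genes. The 10 genes together took 1.38% ± 0.072 (SD, n = 3) of all footprints in control libraries and 1.61% ± 0.12 in knockout libraries. The share was 1.33% to 1.46% in single control libraries and 1.52% to 1.75% in knockout libraries, so the groups did not overlap.

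**Figure D1:**
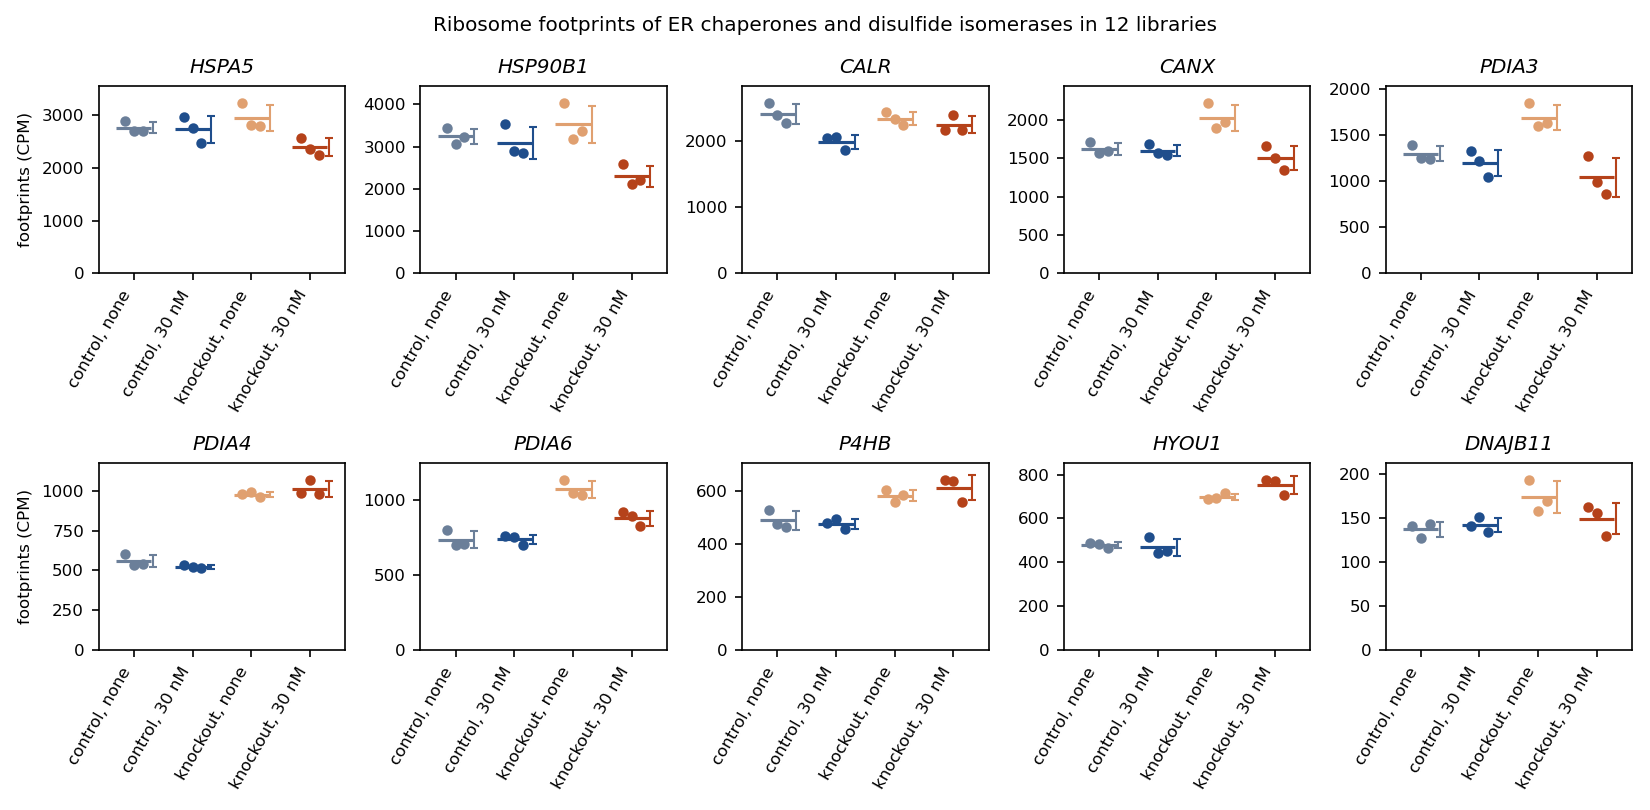
Footprints of the 10 genes in CPM (vertical axes, linear from 0, own range per gene) in each of the 12 libraries, by group; points are libraries in the order of replicates 1 to 3, horizontal lines are group means, and bars at the side are the SD (n = 3). PDIA4, HYOU1, PDIA6 and P4HB lie higher in all 6 knockout libraries than in all 6 control libraries. HSP90B1, CANX, PDIA3, HSPA5 and PDIA6 are lower in knockout cells with selenite than in those without it.

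Among the isomerases, PDIA4 had the largest change of the 10 genes. It lies on chromosome 7 at 149003051 to 149028505, and had 604, 535 and 542 CPM in the control libraries and 982, 992 and 959 CPM in the knockout libraries without selenite. Every knockout library was above every control library by a wide margin against the spread within groups. The log2 fold change was 0.80 ± 0.087 (SE), adjusted p = 2.5e-09. PDIA6 (chromosome 2, 10783391 to 10837712) had 801, 702 and 711 CPM in control cells and 1140.2, 1047 and 1039 CPM in knockout cells. The groups were again separate, at a log2 fold change of 0.54 ± 0.088 and adjusted p = 8.6e-06. PDIA3, the partner of the lectins (chromosome 15, 43746438 to 43773278), had 1393, 1256 and 1245 CPM in control cells against 1847, 1595 and 1629 CPM in knockout cells. Its groups did not overlap either, with knockout replicate 1 the highest, and the log2 fold change was 0.38 ± 0.11, adjusted p = 0.012. P4HB (chromosome 17, 81843166 to 81860535) had 529, 476 and 462 CPM in control cells and 603, 559.6 and 584 CPM in knockout cells. The lowest knockout library was only just above the highest control library, and the log2 fold change of 0.25 ± 0.092 had an adjusted p of 0.042.

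Of the HSPA5 system, the 2 helpers within the set were higher while the chaperone itself did not pass the test. The difference between their changes and that of HSPA5 was not tested. Outside the set, the co-chaperone SIL1 rose by 0.49 (adjusted p = 0.046). The J-domain proteins DNAJB9, DNAJC1, DNAJC3, DNAJC10, DNAJC25 and SEC63 did not pass. These genes outside the set were named after their values were seen. HYOU1, the nucleotide exchange factor (chromosome 11, 119044188 to 119057205), had 487, 485 and 465 CPM in control cells and 687, 691 and 715 CPM in knockout cells. The groups were far apart, at a log2 fold change of 0.54 ± 0.090 and adjusted p = 1.3e-05. DNAJB11, the J-domain co-chaperone (chromosome 3, 186570720 to 186585793), had 141, 128 and 143 CPM in control cells and 194, 159 and 169 CPM in knockout cells. Each knockout library was above each control library, and the log2 fold change was 0.34 ± 0.12, adjusted p = 0.033. HSPA5 (chromosome 9, 125234853 to 125241343) had 2886, 2704 and 2693 CPM in control cells and 3227, 2819 and 2788 CPM in knockout cells. The groups overlapped and knockout replicate 1 stood highest, for a log2 fold change of 0.09 ± 0.087, adjusted p = 0.49. HSP90B1, the ER Hsp90 (chromosome 12, 103930410 to 103947926), had 3438, 3072 and 3224 CPM in control cells and 4034, 3185 and 3367 CPM in knockout cells. These groups overlapped too, and the log2 fold change was 0.12 ± 0.097, adjusted p = 0.40.

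Of the 2 lectin chaperones, CANX passed the test and CALR did not. CANX, the membrane-bound lectin (chromosome 5, 179678656 to 179731641), had 1707, 1562 and 1591 CPM in control cells and 2217, 1891 and 1973 CPM in knockout cells. The groups did not overlap, at a log2 fold change of 0.32 ± 0.088 and adjusted p = 0.0058. CALR, the soluble lectin (chromosome 19, 12938609 to 12944489), had 2565, 2377 and 2267 CPM in control cells against 2428, 2319 and 2235 CPM in knockout cells. These ranges overlapped, with a log2 fold change of -0.05 ± 0.083, adjusted p = 0.74. The difference between the responses of the 2 lectins was not tested.

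The rises of PDIA4, PDIA6 and HYOU1 passed the threshold in all 24 alternative fits of this comparison. CANX lost its call without knockout replicate 1 (adjusted p = 0.054), the library with the highest value in that group of every member but PDIA4 and HYOU1. PDIA3 lost it without that library (0.074), without control replicate 2 (0.062) or 3 (0.061), and with the gene density trend removed (0.12). DNAJB11 lost its call without control replicate 1 (0.070), 2 (0.15) or 3 (0.058), without knockout replicate 1 (0.19) or 3 (0.067), with thinned libraries (0.098) and in DESeq2 (0.075). P4HB lost its call without control replicate 2 (0.15) or 3 (0.18), without knockout replicate 1 (0.13), 2 (0.056) or 3 (0.11), without control replicate 3 with selenite (0.056), with thinned libraries (0.19) and with no filter on low counts (0.058).

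With 30 nM selenite in both genotypes, the knockout difference was split among the 10 genes. PDIA4, HYOU1, P4HB and PDIA6 rose, HSP90B1 fell, and HSPA5, CALR, CANX, PDIA3 and DNAJB11 did not pass the test. Of all tested genes 21.3% were called higher and 21.6% lower in this comparison, so the shares among the 10 genes have to be read against a background in which 42.9% of genes were called. The median log2 fold change was 0.13 over the 10 genes and -0.02 over all tested genes. This comparison shares no library with the one without selenite, though both use 1 estimate of the spread.

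PDIA4 had 537, 521 and 513 CPM in the control libraries with selenite and 990.1, 1072 and 980.2 CPM in the knockout libraries. Every knockout library was far above every control library, at 1.94-fold, a log2 fold change of 0.95 ± 0.089 and adjusted p = 4.8e-11. HYOU1 had 514, 440.4 and 449 CPM in control cells and 777, 772 and 707 CPM in knockout cells. These groups were also well apart, with a log2 fold change of 0.69 ± 0.092, adjusted p = 1.7e-07. P4HB had 478, 492 and 455 CPM against 643, 638 and 557 CPM. Its groups were separate and its log2 fold change was 0.37 ± 0.094, adjusted p = 0.0017. PDIA6 had 763, 752 and 705 CPM against 922, 893 and 827 CPM, also without overlap. Its log2 fold change of 0.25 ± 0.090 had an adjusted p of 0.022.

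HSP90B1 was the member that fell, with 3531, 2891 and 2842 CPM in control cells and 2586, 2115 and 2202 CPM in knockout cells with selenite. All knockout libraries were below all control libraries, for 0.75 times the control level, a log2 fold change of -0.42 ± 0.098 and adjusted p = 6.9e-04. HSPA5 had 2961, 2764 and 2462 CPM against 2570.1, 2364 and 2236 CPM. The groups overlapped and the log2 fold change of -0.19 ± 0.087 did not pass (adjusted p = 0.076). PDIA3 had 1323, 1217 and 1050.3 CPM against 1272, 990.1 and 864 CPM. Knockout replicate 1 lay within the control range and replicates 2 and 3 below it, with a log2 fold change of -0.19 ± 0.11, adjusted p = 0.17. CANX overlapped between the groups at -0.09 ± 0.089 (adjusted p = 0.44), as did DNAJB11 at 0.09 ± 0.13 (0.59). CALR had 2042, 2047 and 1863 CPM in control cells and 2162, 2388 and 2164 CPM in knockout cells. Its groups did not overlap, but the log2 fold change of 0.17 ± 0.084 missed the threshold (adjusted p = 0.091).

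The 2 shallow libraries and the crowding of genes on the chromosome moved with several of these values. Without both shallow libraries, PDIA4, HYOU1, P4HB and PDIA6 stayed past the threshold at 0.94, 0.75, 0.45 and 0.34, while HSP90B1 did not (-0.24, adjusted p = 0.19). The 10 genes lie among 13 (HSP90B1) to 63 (P4HB) protein-coding genes within 1 Mb, with 55 near CALR, 46 near HYOU1 and 16 near each of HSPA5 and PDIA4. For each library, the deviation of log2 CPM from a gene's mean over all libraries was fitted on the log2 scale of that number plus 1. When this trend was removed, P4HB went to 0.09 (adjusted p = 0.49) and CALR to -0.10 (0.36), while HYOU1 stayed past the threshold at 0.45 (1.6e-04) and PDIA4 at 1.07. PDIA6 lost its call without control replicate 3 (0.077) or knockout replicate 1 (0.097) and with no composition scaling (0.069). HSPA5, which stood at -0.19, gained a call as lower without control replicate 3 (0.045), without knockout replicate 1 (0.014) and with no composition scaling (0.028). PDIA3 gained one without knockout replicate 1 (-0.39, 0.0019) and with thinned libraries (-0.27, 0.033). CALR gained one with upper-quartile scaling (0.22, 0.031).

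**Figure D2:**
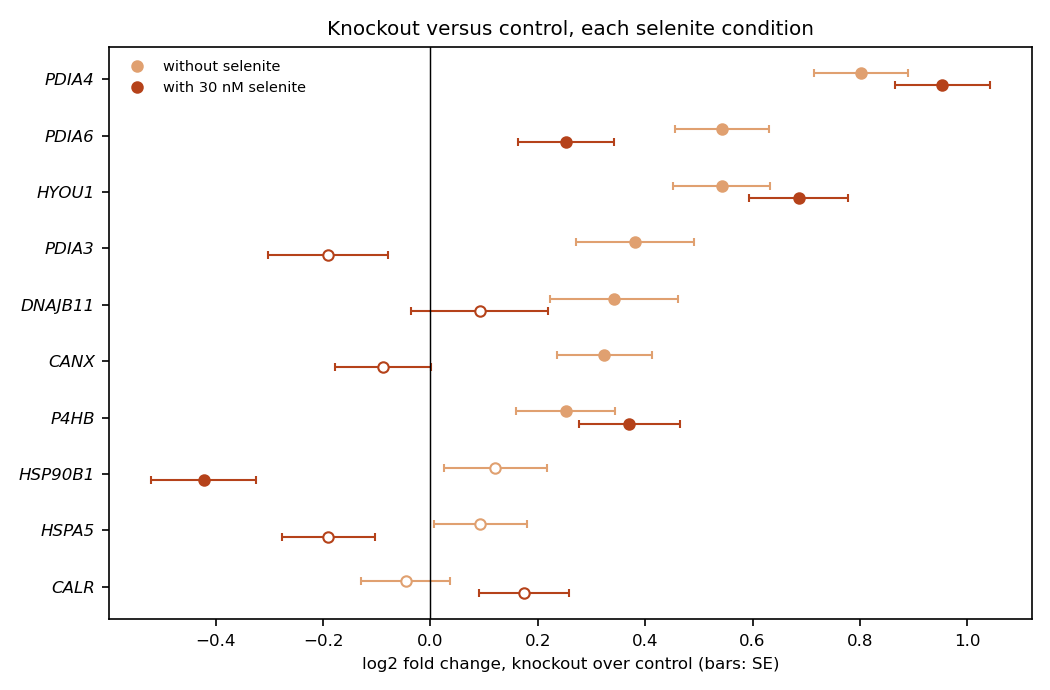
Log2 fold change of knockout over control for each gene (horizontal axis; bars are the SE, 3 libraries per group), without selenite (light) and with 30 nM selenite (dark); filled points passed an adjusted p of 0.05 and open points did not. PDIA4 and HYOU1 stand to the right in both conditions, at 0.80 and 0.95 and at 0.54 and 0.69, while HSP90B1 lies at 0.12 without selenite and -0.42 with it.

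The next question was what 30 nM selenite changed in each genotype. In control cells none of the 10 genes was called, by edgeR or by DESeq2, and among all tested genes 0.0191% were. CALR was the single member with an unadjusted p under 0.05. It had 2565, 2377 and 2267 CPM without selenite and 2042, 2047 and 1863 CPM with it. The groups did not overlap, yet the log2 fold change of -0.28 ± 0.083 had an unadjusted p of 0.0020 and an adjusted p of 1, and it lay between -0.32 and -0.23 in the 24 alternatives with adjusted p from 0.20 to 1. The other 9 changes ran from -0.12 (PDIA3) to 0.04 (DNAJB11) and their groups overlapped. The median over the 10 genes was -0.04, against -0.0043 over all tested genes.

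In knockout cells, selenite went with lower footprints of 5 of the 10 genes, and none was higher. Among all tested genes 10.3% were called lower and 10.2% higher. HSP90B1 went from 4034, 3185 and 3367 CPM without selenite to 2586, 2115 and 2202 CPM with it. The groups did not overlap, and the deepest knockout library with selenite, replicate 1, was below all 3 libraries without it. The log2 fold change was -0.62 ± 0.098, adjusted p = 8.1e-05. PDIA3 went from 1847, 1595 and 1629 to 1272, 990.1 and 864 CPM, again with replicate 1 closest to the untreated cells. Its log2 fold change of -0.69 ± 0.11 (adjusted p = 1.9e-04) was the largest of the 10.

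CANX went from 2217, 1891 and 1973 to 1658, 1503 and 1342 CPM, a log2 fold change of -0.43 ± 0.089, adjusted p = 0.0010. HSPA5 fell from 3227, 2819 and 2788 to 2570.1, 2364 and 2236 CPM (-0.30 ± 0.087, adjusted p = 0.013). PDIA6 fell from 1140.2, 1047 and 1039 to 922, 893 and 827 CPM (-0.29 ± 0.089, adjusted p = 0.020). In these 5 genes, which are the ones called lower, each library with selenite was below each library without it. The share of all tested genes separated in this way was not counted for any comparison. PDIA4 (0.05), HYOU1 (0.11), P4HB (0.08), CALR (-0.06) and DNAJB11 (-0.21) overlapped between the groups and did not pass. The median log2 fold change was -0.25 over the 10 genes and 0.01 over all tested genes. The share of footprints taken by the 10 genes was 1.25% ± 0.099 (SD, n = 3) in knockout cells with selenite and 1.30% ± 0.11 in control cells with it.

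These selenite calls differed in how far they held. HSPA5 kept its call in 18 of 24 alternatives and PDIA6 in 17. HSP90B1, PDIA3 and CANX each kept theirs in 22, and lost it only without both shallow libraries. Without both of them, with 1 knockout library with selenite left and assumed to vary like the others, 0 of the 10 genes passed, and of all genes 54 did in place of 2149. The values then were -0.43 for HSP90B1 (adjusted p = 0.12), -0.39 for PDIA3 (0.13), -0.27 for CANX (0.24), -0.20 for PDIA6 (0.41) and -0.18 for HSPA5 (0.47). HSPA5 and PDIA6 each lost the call without knockout replicate 1 without selenite (0.15 and 0.15), and without knockout replicate 2 (0.073 and 0.071) or 3 (0.065 and 0.082) with selenite. PDIA6 also lost it with thinned libraries (-0.25, 0.065). With the gene density trend removed, HSPA5 (0.15) and PDIA6 (0.11) were no longer past the threshold and CALR was (-0.33, adjusted p = 0.0047).

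**Figure D3:**
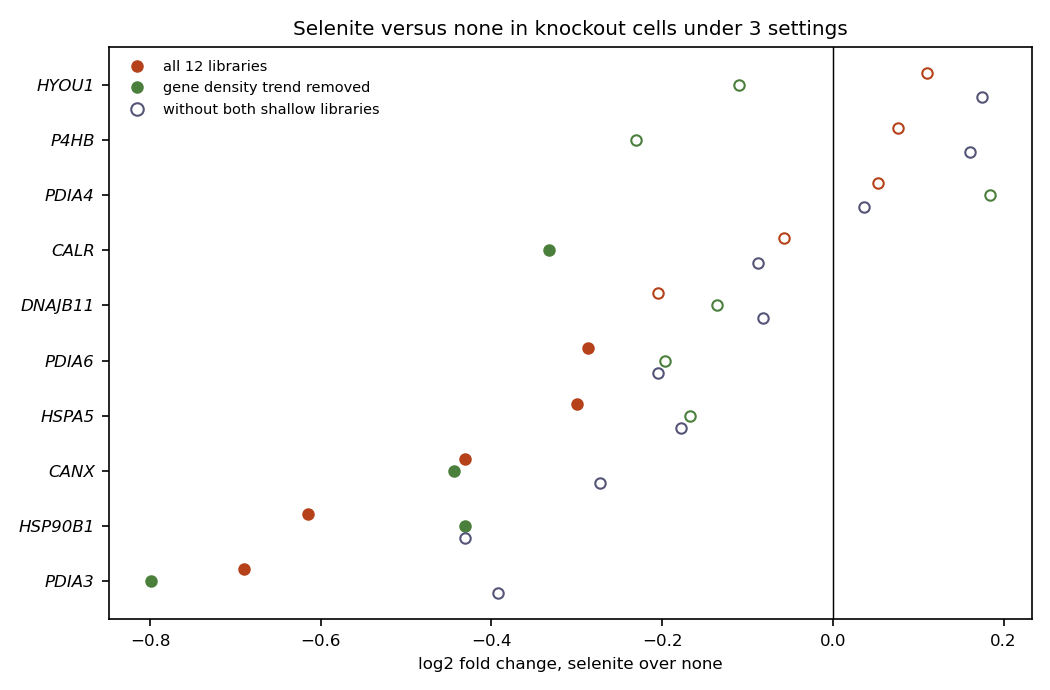
Log2 fold change of selenite over none in knockout cells for each gene (horizontal axis) with all 12 libraries, with the gene density trend of each library removed, and without both shallow libraries; filled points passed an adjusted p of 0.05 and open points did not. Without the shallow libraries no point is filled, although HSP90B1 stays at -0.43 and PDIA3 at -0.39.

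Whether the knockout difference itself depended on selenite was tested as the interaction, which uses the libraries of the comparisons above. Of the 10 genes 3 passed, all lower with selenite: PDIA3 at -0.57 ± 0.16 (adjusted p = 0.029), HSP90B1 at -0.54 ± 0.14 (0.017) and CANX at -0.41 ± 0.13 (0.038). Of all tested genes 3.69% were called lower and 3.76% higher, 7.45% in all. PDIA6 (-0.29, adjusted p = 0.14), HSPA5 (-0.28, 0.15) and DNAJB11 (-0.25, 0.38) lay on the same side without passing. PDIA4 (0.15 ± 0.12, 0.47), HYOU1 (0.14 ± 0.13, 0.51), P4HB (0.12 ± 0.13, 0.60) and CALR (0.22 ± 0.12, 0.24) lay on the other side, also without passing. No member passed without both shallow libraries, where the 3 values were -0.28, -0.36 and -0.26. Without the gene density trend CANX alone passed.

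The 3 interaction calls also turned on single libraries, and that of CANX on upper-quartile scaling (-0.37, adjusted p = 0.063) and on thinning (-0.37, 0.089). None was left when any of 5 libraries was dropped: control replicate 2 or knockout replicate 1 without selenite, control replicate 1 with selenite, or knockout replicate 2 or 3 with selenite. A single call was left after dropping control or knockout replicate 3 without selenite, and 2 after dropping control replicate 1 without selenite or control replicate 2 or 3 with it. In the fits without a single library that lost a call, HSP90B1 lay between -0.51 and -0.42 (adjusted p 0.056 to 0.086), CANX between -0.46 and -0.33 (0.054 to 0.16) and PDIA3 between -0.60 and -0.46 (0.052 to 0.12). HSPA5 gained a call without knockout replicate 1 with selenite (-0.36, 0.034). In all 23 alternatives of the interaction these 4 genes lay below 0.

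Profiles over the 12 libraries differed among the 10 genes. As a description across libraries that share groups and depth, PDIA4 and HYOU1 had a Pearson correlation of log2 CPM of 0.979, and each was close to P4HB (0.93 and 0.93). CANX and PDIA3 correlated at 0.962 and HSPA5 and HSP90B1 at 0.941. PDIA6 was closest to DNAJB11 (0.861). CALR reached at most 0.426, with P4HB. The lowest of the 45 pairs was HSP90B1 with HYOU1 at -0.332, and the median pair was at 0.397. The genes with ERSE include HSPA5 and HSP90B1, which were close to each other, and CALR, CANX and PDIA6, each of which was closest to a gene other than these. With HSPA5 and HSP90B1, CANX stood at 0.832 and 0.784, PDIA6 at 0.336 and 0.208, and CALR at 0.312 and 0.204. PDIA3, the gene closest to CANX, had no promoter window to search.

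Outside the 10 genes, those with a profile most like the mean log2 CPM of the 10 were taken from 9149 genes with a mean of at least 10 CPM. They were ATP1B3, a subunit of the sodium and potassium pump (r = 0.972 over 12 libraries), GLRX3, a glutaredoxin (0.953), RAI14, an actin-binding protein (0.952), LAMA4, a laminin chain (0.949), and SRPRB, the membrane subunit of the receptor for the signal recognition particle (0.948). ATP1B3 had 398 ± 17.4 and 601 ± 55.7 CPM (SD, n = 3) in control and knockout cells without selenite and 392 ± 35.2 and 447 ± 79.9 CPM with it. Its mean was thus highest in the same group as those of HSPA5, HSP90B1, CANX, PDIA3, PDIA6 and DNAJB11, but not of the other members.

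Other genes of the ER folding pathway were followed by 6 lists, and relatives of the 10 genes outside the ER by another. The share of a list called in either direction is given against all tested genes, of which 23.9% were called without selenite and 42.9% with it. Among 39 other foldases and co-chaperones, 13 were called higher and 1 lower in knockout cells without selenite, with a median log2 fold change of 0.22, and 14 rose and 8 fell with selenite, with a median of -0.04. In all 35.9% and 56.4% of the list were called. PDIA5, another isomerase, went from 16.2 ± 3.31 to 34.1 ± 0.957 CPM without selenite (log2 fold change 1.06 ± 0.22, adjusted p = 3.1e-04) and from 20.5 ± 4.39 to 43.4 ± 6.23 CPM with it (1.05 ± 0.23, 3.3e-04). PRDX4, an ER peroxiredoxin that oxidizes isomerases, rose by 0.78 and 0.64, and TXNDC5, an isomerase of the same family, by 0.64 and 0.60. ERO1B, 1 of 2 ER oxidases that reoxidize P4HB, went the other way, from 56.6 ± 7.12 to 9.13 ± 0.688 CPM without selenite (-2.63 ± 0.24, adjusted p = 3.7e-11) and from 59.7 ± 7.75 to 6.29 ± 5.25 CPM with it (-3.36 ± 0.30, 1.8e-11). ERO1A, the other of these oxidases, did not pass in either condition, at 0.26 (adjusted p = 0.19) and -0.35 (0.070). Among the membrane-bound isomerases TMX3 stood at -0.18 (0.36) without selenite and fell by 1.00 with it, and TMX4 did not pass (0.01 and -0.32). TMX2 rose by 0.38 without selenite (0.0073) and stood at 0.12 with it (0.39), and TMX1 did not pass (0.24 and -0.30). ERO1A, TMX1, TMX2, TMX3 and TMX4 were named after their values were seen.

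Of 18 genes of the calnexin cycle and N-glycosylation, 4 rose and 1 fell without selenite (median 0.11), and 7 rose and 5 fell with it (median -0.08). The share called was 27.8% without selenite, near the 23.9% of all genes, and 66.7% with it. PRKCSH, the regulatory subunit of the glucosidase that trims glycans for the lectins, fell from 1098 ± 103 to 584 ± 25.8 CPM without selenite (-0.91 ± 0.090, adjusted p = 2.1e-10) and by 0.57 on the log2 scale with it. MAN1B1, an ER mannosidase, rose by 0.68 and 0.98. The oligosaccharyltransferase subunits RPN1 and STT3B rose by 0.41 and 0.42 without selenite. With selenite RPN1 was 0.34 higher (adjusted p = 0.0040) and STT3B stood at -0.10 (0.50).

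Of 16 translocation genes, 5 rose and 1 fell without selenite (median 0.25), and 3 rose and 6 fell with it (median -0.14), so that 37.5% and 56.2% were called. SSR4, a subunit of the translocon-associated complex, rose from 219 ± 19.3 to 379 ± 24.4 CPM (0.79 ± 0.10, adjusted p = 1.1e-07) and with selenite from 212 ± 9.10 to 491 ± 45.7 CPM (1.20 ± 0.10, 8.1e-12). SEC61A1, the channel subunit, rose by 0.35 and 0.39. The 2 subunits of the signal recognition particle receptor went opposite ways without selenite, SRPRB at 0.65 and SRPRA at -0.51, and neither passed with selenite (0.28 and -0.26).

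In ER-associated degradation, 2 of 21 genes rose and 2 fell without selenite (median 0.05), and 4 rose and 6 fell with it (median -0.05). The shares called, 19.0% and 47.6%, were near those of all tested genes, so the counts say nothing particular of this list. EDEM1 and EDEM3, mannosidase-like proteins that mark misfolded glycoproteins, rose by 0.71 and 0.60 without selenite, while UBE2J1, a ubiquitin-conjugating enzyme, and DERL1, a membrane component, fell by 0.47 and 0.33. With selenite, EDEM3 was 0.32 higher (adjusted p = 0.045), EDEM1 stood at 0.18 (0.51), and UBE2J1 and DERL1 fell by 0.80 and 0.68. Of the 3 KDEL receptors, which return ER proteins from the Golgi, KDELR1 fell by 0.37 and KDELR2 rose by 0.30 without selenite. With selenite KDELR1 fell by 0.34.

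Of 16 sensors and transcription factors of the unfolded protein response 14 were tested. Without selenite 4 rose and none fell, with a median of 0.20, and with selenite 7 rose and 1 fell, with a median of 0.56. The share called was 28.6% without selenite, near the 23.9% of all genes, and 57.1% with it, against 42.9% of all genes. The gene that fell with selenite was MBTPS2 (-0.42, adjusted p = 0.022). The sensors ATF6, ERN1 (IRE1) and EIF2AK3 (PERK) did not pass in either condition. ATF6 stood at 0.17 and -0.21, ERN1 at -0.28 and 0.82 (adjusted p = 0.062 with selenite), and EIF2AK3 at 0.14 and -0.52. XBP1 stood at -0.29 and 0.03, also without passing. ATF6B stood at -0.01 (adjusted p = 0.97) without selenite and rose by 0.63 with it (0.016). ATF4 stood at 0.39 (0.12) without selenite and rose by 0.62 with it (0.010). ATF6, ERN1, EIF2AK3, XBP1, ATF6B and ATF4 were named for their role in the pathway, after their values were seen. CEBPB, a transcription factor, rose from 27.8 ± 1.75 to 59.1 ± 12.2 CPM without selenite (1.07 ± 0.20, adjusted p = 6.0e-05) and from 29.4 ± 3.99 to 87.2 ± 21.0 CPM with it (1.49 ± 0.21, 3.3e-07). TRIB3, a pseudokinase induced by stress, rose by 0.75 and 1.11. WFS1, an ER membrane protein, rose by 0.72 and 1.57, and NFE2L1, a transcription factor anchored in the ER membrane, by 0.51 and 0.76.

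**Figure D4:**
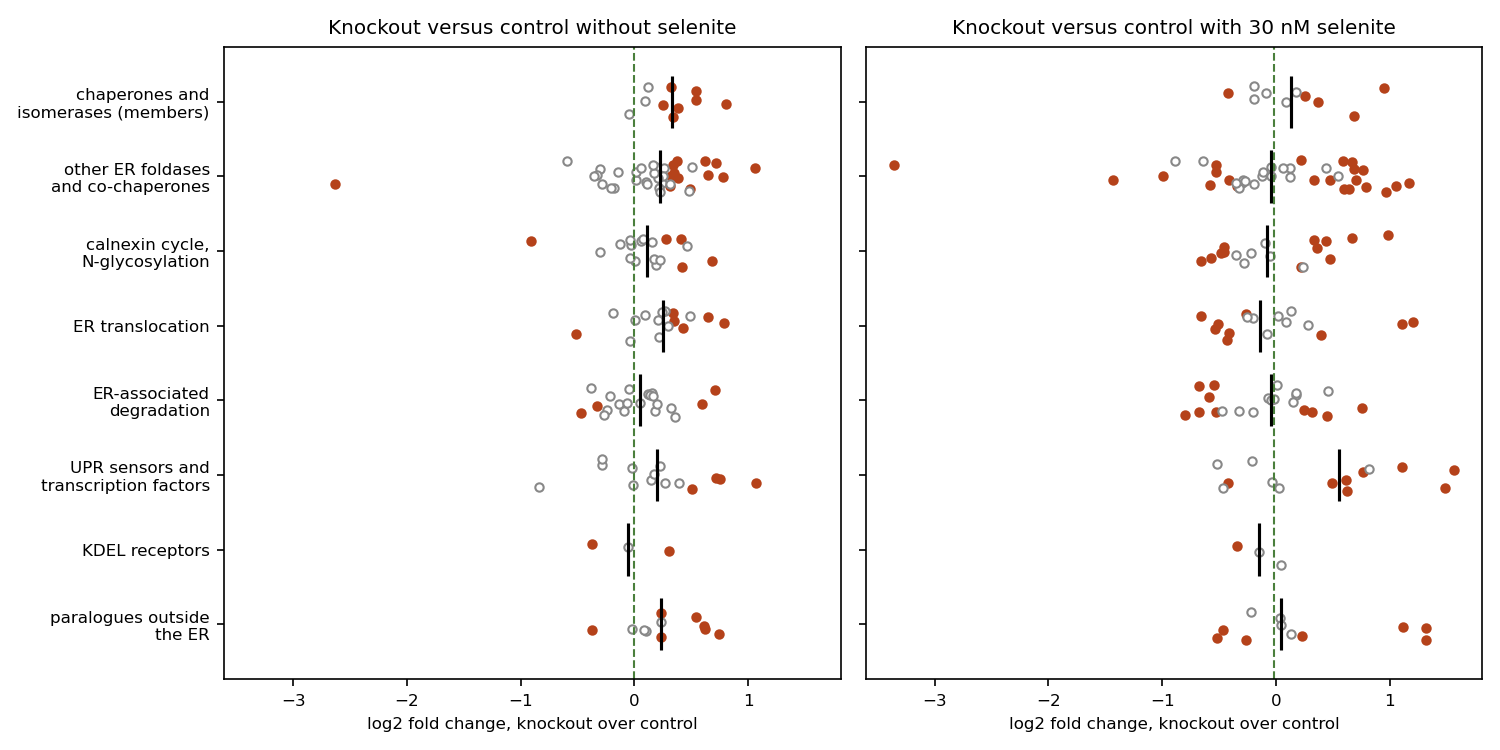
Log2 fold change of knockout over control (horizontal axes) for the tested genes of each list, without selenite on the left and with 30 nM selenite on the right; filled points passed an adjusted p of 0.05, black bars are list medians and the dashed line is the median of all tested genes. Vertical scatter within a list carries no value. The median of the 10 chaperones and isomerases lies at 0.33 on the left and 0.13 on the right.

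The relatives of these chaperones outside the ER were set beside them to see which changes the families shared. Of 11 tested, 6 rose and 1 fell without selenite (median 0.23), and 4 rose and 3 fell with it (median 0.05), so that 63.6% were called in each condition. Of the Hsp70 family, cytosolic HSPA8 rose by 0.23 without selenite (4853 ± 188 to 5703 ± 199 CPM) and stood at 0.04 with it (adjusted p = 0.73). Mitochondrial HSPA9 rose by 0.54 and 0.23. Stress-inducible HSPA1A and HSPA1B rose by 0.62 and 0.61 without selenite and by 1.32 and 1.32 with it, but they are near-identical copies and how shared reads were counted is not given in the sources used here, so they cannot be taken as separate genes. HSPA4 and HSPH1, cytosolic exchange factors related to HYOU1, stood at 0.23 (adjusted p = 0.10) and 0.09 (0.62) without selenite and fell by 0.26 and 0.47 with it.

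Of the Hsp90 family, cytosolic HSP90AA1 had values near those of HSP90B1. It stood at -0.02 (adjusted p = 0.90) without selenite and fell by 0.52 with it, from 2828 ± 193 to 1972 ± 194 CPM. HSP90AB1 rose by 0.23 without selenite and stood at 0.13 with it (0.19). Mitochondrial TRAP1 rose by 0.74 and 1.12, from 271 ± 13.9 to 453 ± 16.2 CPM and from 270.4 ± 10.0 to 589 ± 35.3 CPM. Of the J-domain proteins, DNAJB1 fell by 0.37 without selenite and stood at -0.22 with it (0.16), and DNAJA1 stood at 0.10 and 0.05 (0.53 and 0.75).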

How the data were processed

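Per the labels' protocols, lysates prepared with cycloheximide and tigecycline were digested with RNase I, fragments were selected by size and depleted of ribosomal RNA. Per the submitters' processing notes, Trim Galore 0.6.10, STAR 2.7.9a, DESeq2 and GRCh38 were used, with no order. The counting tool and the use of molecular identifiers are not given in the sources used here. The authors deposited whole-number footprint counts per gene, and a table of normalized signal that was checked to be those counts divided by 1 factor per library. The counts were fitted with edgeR 4.0.16 (R 4.3.3): filterByExpr (minimum count 10, minimum total count 15), TMM scaling, 1 coefficient per group over all 12 libraries, robust quasi-likelihood tests of 5 contrasts and Benjamini-Hochberg adjustment over 10467 genes, with a threshold of 0.05. The fit was tested on simulated data. Standard errors derive from the F statistic and are approximate. A value of 3 counts corresponds to 1.94 to 5.76 CPM, covering counting error only. Libraries of 1 group differed by more than counting noise, so none was taken as a duplicate. Replicate numbers were not treated as pairs. The members, lists and tests were chosen with earlier results of these data known. Named were all members, FTSJ1, up to 4 genes per list by adjusted p, the relatives outside the ER and the 5 genes with the most similar profile. Alternatives changed the scaling, tool, filter, depth, libraries and samples fitted, added a replicate block, or removed a lowess trend on protein-coding genes within 1 Mb. Of the symbols 12978 matched the RefSeq table directly and 65 by synonym.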

Additional observations from a re-analysis of the deposited data

Results flagged for a closer look

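The knockout change with selenite minus that without selenite passed the test for 3 genes, at -0.57 for PDIA3, -0.54 for HSP90B1 and -0.41 for CANX on the log2 scale. In each the knockout cells with selenite had the lowest mean of the 4 groups. None of the 3 passed without both shallow libraries, and the part of depth in the difference was not tested further.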

How the results depend on the processing

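Changed scaling, tool, filter and thinning kept the direction of every member's call in all 5 contrasts, though some calls were lost or gained as given with each gene. Members past the threshold went from 5 to 0 for selenite in knockout cells and from 3 to 0 for the interaction without both shallow libraries. With the gene density trend removed as well, an alternative added after seeing the data, they were 0, 0 and, for the knockout with selenite, 3 in place of 5. Removing the density trend alone left 1 in the interaction. Leaving out single libraries gave 3 to 7 members for the knockout without selenite, 5 to 6 with it, 3 to 5 for selenite in knockout cells, 0 for selenite in control cells and 0 to 4 for the interaction. The replicate block gave 7 and 8 members for the knockout without and with selenite, 5 for selenite in knockout cells and 0 in control cells, and 4 for the interaction. It added HSPA5 (-0.19, adjusted p = 0.016), PDIA3 (-0.20, 0.029) and CALR (0.17, 0.033) to the knockout with selenite, and HSPA5 to the interaction. The numbers were not taken as pairs, since the labels do not say that they mark one and deviations of the 18 same-numbered pairs correlated at -0.035 to 0.276 (median 0.081, against -0.047 for 36 other pairs). That 10 of 12 libraries correlated best with one of their own number is a hint from the data only.

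Signs turned in values that had not passed. With the density trend removed they were -0.095 for CALR in the knockout with selenite, -0.074 (CALR), -0.095 (HYOU1) and -0.21 (P4HB) in the interaction, and -0.11 (HYOU1) and -0.23 (P4HB) for selenite in knockout cells. Without both shallow libraries CANX was 0.071 and PDIA3 0.11 in the knockout with selenite. With both changes the knockout with selenite gave -0.031 (CALR), 0.0055 (CANX) and 0.0076 (HSPA5), the interaction -0.019 (CALR) and -0.035 (P4HB), and selenite in knockout cells -0.052 (P4HB). Leaving out single libraries, CALR in the knockout without selenite ran from -0.088 to 0.0012 (without control replicate 1), and DNAJB11 with selenite from -0.0085 (without knockout replicate 1) to 0.17. The cause was not tested.

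Over all genes, calls fell from 2149 to 54 and from 780 to 10 for selenite in knockout cells and the interaction without the shallow libraries, to 1224 and 363 without the density trend, and rose to 1268 for the interaction with the block. DESeq2 called 1656 in place of 2501 for the knockout without selenite. Of the interaction calls 50.5% were higher, against 63.6% with upper-quartile scaling and 40.2% with no composition scaling. Without histone genes in the total, the members' share was 1.48%, 1.71%, 1.39% and 1.36% in control and knockout cells without and then with selenite. Levels per codon were not run, since no coding lengths were used here, and so levels were not compared between genes. The 2 shallow libraries limit the precision of every value with selenite in knockout cells.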
